A study of Mus musculus with 3 samples.

Results

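The 7 genes described here encode microglial receptors for extracellular nucleotides and adenosine and the surface enzyme that degrades ATP, in single-cell RNA sequencing of the mouse lumbar spinal cord. They were chosen by symbol, as the 7 rows named P2rx4, P2rx7, P2ry6, P2ry12, P2ry13, Adora3 and Entpd1 among the 27998 genes of the deposited matrix, and all 7 were found in every library. YFP (+) cells were sorted by FACS from the lumbar cord of Cx3cr1-creER-yfp heterozygous mice of strain C57BL/6, in which the Cx3cr1 locus drives both YFP and the tamoxifen-dependent Cre, so any cell with Cx3cr1 activity could enter the sort. Naive animals and animals 24 h or 48 h after sciatic nerve transection formed the 3 groups. Each group is 1 library of cells pooled from 3 animals. The sort excluded doublets and selected cells by size, and every group carries the same heterozygous Cx3cr1 allele. The matrix joins the libraries and marks their cells only by the ending 1, 2 or 3 of the barcode. Which ending stands for which time point is not known here, so values are given for library 1, 2 and 3, with no comparison by time and no test between libraries.

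Damaged or active cells release ATP and UTP, and microglia sense these nucleotides and their breakdown products through ligand-gated P2X channels and G protein-coupled P2Y receptors. Surface enzymes such as CD39 remove phosphates from ATP and ADP, CD73 turns the resulting AMP into adenosine, and adenosine acts on receptors of its own. In microglia this system is known for steering processes toward a lesion through P2Y12, for phagocytosis through P2Y6, and for signalling in pain after nerve injury through P2X4.

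Depth differed between the libraries. Library 1 held 609 cells at a median of 2218 UMIs (unique molecular identifiers, each counting 1 transcript molecule), library 2 held 3591 cells at 5952 and library 3 held 3322 cells at 5742. Every cell was therefore thinned at random to 2000 UMIs, which kept 408, 3569 and 3284 cells, and a level below is the mean number of UMIs per cell thinned in this way. Of the 408 cells kept in library 1, 9 had 4000 or more UMIs before thinning, against 3218 in library 2 and 2912 in library 3. Barcodes without their suffix were shared by 5 cells between libraries 1 and 2, by 3 between 1 and 3 and by 19 between 2 and 3. Of 8 microglial markers (Tmem119, Csf1r, Fcrls and others), 8 were found in each library, 8 in library 1 and 7 in libraries 2 and 3 in over 25% of cells, and their summed level was 26.6, 24.1 and 25.8 UMIs. The lists of 8 other cell types summed to between 0 and 0.299 UMIs per cell, with Cd163, Lyve1 and Cd3e at 0 in every library. Other markers were not absent. The most often found marker of the astrocyte list was in 24.3%, 18.3% and 18.8% of cells, and that of the oligodendrocyte list in 8.09%, 7.09% and 9.77%. Intervals below are exact 95% Poisson (levels, ratios) or Clopper-Pearson (shares) intervals, which hold counting error and nothing of the spread between animals.

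On GRCm38, in the GENCODE M21 annotation, the genes lie on chromosomes 3, 5, 7 and 19. P2ry12 (ENSMUSG00000036353, chr3:59216272-59262871, minus strand) and P2ry13 (ENSMUSG00000036362, chr3:59207892-59210882, minus strand) are neighbours separated by 5389 bp, and both lie inside Med12l on the opposite strand. P2rx7 (ENSMUSG00000029468, chr5:122643911-122691432) and P2rx4 (ENSMUSG00000029470, chr5:122707544-122729738) follow each other on the plus strand, 16111 bp apart. Adora3 (ENSMUSG00000000562, chr3:105870858-105908926, plus strand) overlaps Tmigd3 on the same strand, P2ry6 (ENSMUSG00000048779) lies at chr7:100937630-100974649 on the minus strand, and Entpd1 (ENSMUSG00000048120) at chr19:40612366-40741602 on the plus strand.

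The promoters of 4 members are shown, as the 250 bases before the RefSeq start site on GRCm38.p6, 5′ to 3′ on the strand of the gene. P2ry12 and P2ry13 are shown because they are neighbours and the pair with the highest correlation over cells in each library, and Adora3 and P2rx7 because a window of each holds the letters bound by AP-1, the dimers of Fos and Jun proteins whose genes are in the early gene list used further on. Capitals mark matches on either strand to GAGGAA, the core that the macrophage factor PU.1 binds, or to TGANTCA, the AP-1 letters.
P2ry12, chr3:59262986-59263235: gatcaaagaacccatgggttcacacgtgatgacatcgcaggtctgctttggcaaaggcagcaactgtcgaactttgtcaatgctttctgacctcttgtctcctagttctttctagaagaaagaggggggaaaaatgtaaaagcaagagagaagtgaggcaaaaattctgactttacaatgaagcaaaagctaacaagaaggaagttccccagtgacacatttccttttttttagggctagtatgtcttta
P2ry13, chr3:59210883-59211132: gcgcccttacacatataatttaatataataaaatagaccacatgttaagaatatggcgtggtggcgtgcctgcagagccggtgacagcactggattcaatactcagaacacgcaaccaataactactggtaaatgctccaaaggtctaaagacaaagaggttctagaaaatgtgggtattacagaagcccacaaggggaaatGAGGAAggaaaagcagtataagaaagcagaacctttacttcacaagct
Adora3, chr3:105904171-105904420: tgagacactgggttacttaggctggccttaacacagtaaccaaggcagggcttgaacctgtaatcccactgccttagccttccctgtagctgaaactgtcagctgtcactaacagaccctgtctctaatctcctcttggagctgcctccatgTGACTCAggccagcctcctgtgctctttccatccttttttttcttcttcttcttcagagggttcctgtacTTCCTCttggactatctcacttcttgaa
P2rx7, chr5:122643677-122643926: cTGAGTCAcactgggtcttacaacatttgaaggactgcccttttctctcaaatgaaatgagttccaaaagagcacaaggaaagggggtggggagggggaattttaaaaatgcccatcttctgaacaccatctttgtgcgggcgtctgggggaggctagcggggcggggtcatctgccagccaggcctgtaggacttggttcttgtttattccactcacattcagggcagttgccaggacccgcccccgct
GAGGAA was found 48 bases before the start of P2ry13 and not in the window of its neighbour P2ry12. The Adora3 window held both motifs, with GAGGAA on the minus strand. P2rx7 has another RefSeq window, chr5:122650133-122650382, which held neither motif and is not shown. Over the 8 windows that RefSeq gave for 6 members, 3 held GAGGAA and 2 held TGANTCA, while 23.3% and 6.75% of all 32851 promoter windows of this length did. The motifs do not overlap in these windows, and a match is a description of letters, not of a bound site.

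P2rx4 encodes the ATP-gated channel P2X4. Library 1 held 0.284 UMIs of it per cell (0.235 to 0.341), library 2 held 0.222 (0.207 to 0.238) and library 3 held 0.269 (0.252 to 0.288). Library 2 lay below library 3, and its ratio to library 1 was 0.781 (0.642 to 0.957). Library 3 did not differ from library 1 beyond counting error, at a ratio of 0.947 (0.779 to 1.16). At equal depth a P2rx4 UMI was found in 23.8%, 19.9% and 23.4% of cells.

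P2rx7 encodes P2X7, the ATP-gated channel that opens at high ATP and is coupled to inflammasome activation. Library 1 held 0.265 UMIs of it per cell (0.217 to 0.320), library 2 held 0.181 (0.167 to 0.195) and library 3 held 0.157 (0.144 to 0.171). Library 1 was above both other libraries, and library 3 was below library 2 by the interval of their ratio, 0.869 (0.773 to 0.978). That small difference depended on the random draw of UMIs. The log2 ratio of library 3 to library 2 was -0.202 here and -0.016 with another seed. The shares of cells were 22.8%, 16.8% and 14.7%.

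P2ry6 encodes the UDP receptor P2Y6. Library 1 held 1.34 UMIs of it per cell (1.23 to 1.46), library 2 held 1.84 (1.80 to 1.89) and library 3 held 1.55 (1.51 to 1.60), with no overlap between any pair of libraries. It was found in 72.8%, 84.1% and 79.2% of cells. P2ry6 and Adora3 were the members lowest in library 1.

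P2ry12 encodes P2Y12, the Gi-coupled ADP receptor used as a marker of resting microglia. Library 1 held 8.03 UMIs of it per cell (7.75 to 8.31), library 2 held 4.79 (4.72 to 4.87) and library 3 held 5.20 (5.12 to 5.28), and none of these intervals overlapped. The median cell held 8, 4 and 5 UMIs, and cells between the outer 5% at either end held 2 to 15, 1 to 9 and 1 to 10. P2ry12 was found in 99.02%, 98.1% and 98.9% of cells, shares close to the ceiling at these levels. At least 2 UMIs of it were found in 97.1%, 91.9% and 93.9% of cells.

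P2ry13 encodes P2Y13, another Gi-coupled receptor for ADP. Library 1 held 1.84 UMIs of it per cell (1.71 to 1.98), library 2 held 1.09 (1.05 to 1.12) and library 3 held 1.40 (1.36 to 1.44), again without overlap. The shares were 79.2%, 65.2% and 74.1%. P2ry13 and P2ry12 had the same order of libraries, 1 above 3 above 2.

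Adora3 encodes the adenosine receptor A3. Library 1 held 0.262 UMIs of it per cell (0.215 to 0.317), library 2 held 0.327 (0.308 to 0.346) and library 3 held 0.330 (0.310 to 0.350). Libraries 2 and 3 could not be told apart at this depth. Library 1 was below both, with ratios to it of 1.25 (1.02 to 1.53) in library 2 and 1.26 (1.03 to 1.55) in library 3, whose intervals come close to 1. As log2 ratios these are 0.318 and 0.331. They were smaller with another seed, at 0.193 and 0.252, and without thinning, at 0.210 and 0.189. In cells of 2000 to 4000 raw UMIs alone they were larger, at 0.388 and 0.461. It was found in 22.3%, 27.5% and 27.7% of cells. Tmigd3, which overlaps it, had UMIs in 2, 18 and 18 cells.

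Entpd1 encodes CD39, the ectonucleotidase that converts ATP and ADP to AMP. Library 1 held 0.674 UMIs of it per cell (0.597 to 0.759), library 2 held 0.382 (0.362 to 0.402) and library 3 held 0.376 (0.356 to 0.398). Libraries 2 and 3 overlapped and library 1 was above both. The shares were 47.5%, 31.8% and 31.1%.

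**Figure D1:**
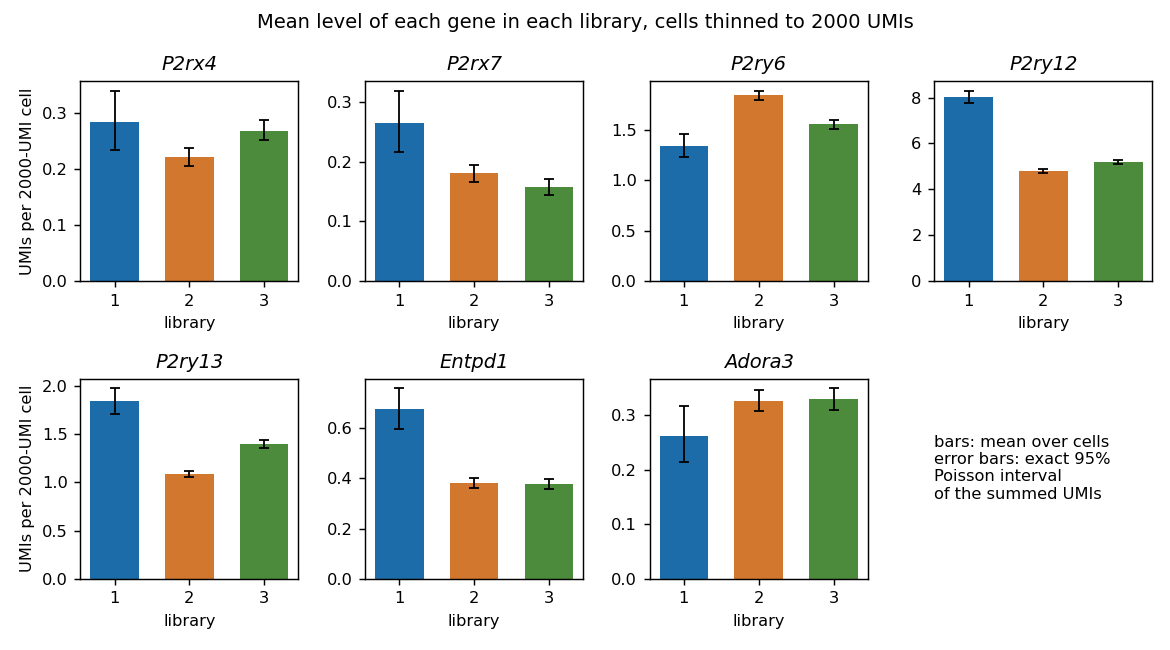
Mean level of each gene (vertical axis, UMIs per cell thinned to 2000 UMIs) in libraries 1, 2 and 3 (horizontal axis), with exact 95% Poisson intervals as error bars; each panel has its own scale from 0. P2ry12, P2ry13, P2rx7 and Entpd1 stand highest in library 1 beyond their intervals, with P2ry12 at 8.03 against 4.79 and 5.20, while P2ry6 (1.34 against 1.84 and 1.55) and Adora3 (0.262 against 0.327 and 0.330) are lowest there.

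The order of the shares was not the same with and without thinning. Counted in all cells as deposited, Entpd1 was found in 48.3% of cells of library 1 and in 67.7% and 65.6% of those of libraries 2 and 3, so that library 1 was lowest, while it was highest at 2000 UMIs. P2rx7 went from 22.8%, 16.8% and 14.7% to 22.0%, 43.2% and 36.8%, and P2ry13 from 79.2%, 65.2% and 74.1% to 81.1%, 94.7% and 97.0%. The unthinned shares of the remaining genes were 27.4%, 50.3% and 51.9% for P2rx4, 73.1%, 98.9% and 97.7% for P2ry6 and 25.8%, 63.1% and 58.3% for Adora3. P2ry12 was found without thinning in 96.9% of cells in library 1, in 100% in library 2 and in all but 1 of the 3322 cells of library 3. The libraries held too few cells of a type known to lack these genes to measure the share that free RNA gives.

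**Figure D2:**
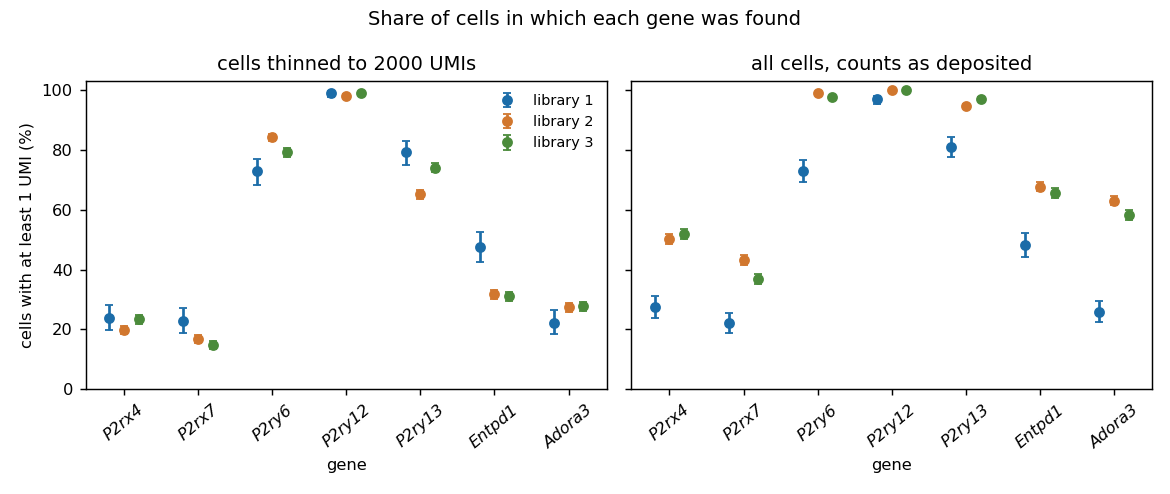
Share of cells with at least 1 UMI of each gene (vertical axis, percent) for cells thinned to 2000 UMIs (left) and for all cells as deposited (right), coloured by library, with exact 95% binomial intervals. At equal depth library 1 is the highest for Entpd1 (47.5%), while in all cells it is the lowest (48.3% against 67.7% and 65.6%).

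Between libraries a gene was counted as different where the ratio of levels was at least 1.5-fold, among genes with at least 0.04 UMIs per thinned cell (20 counts per 1000000) in 1 of the libraries compared, and all 7 genes passed this minimum in every comparison. In library 2 against library 1, 3 of the 7 genes were at least 1.5-fold lower and 0 higher. These were Entpd1 at a ratio of 0.566 (0.497 to 0.647), P2ry13 at 0.591 (0.546 to 0.639) and P2ry12 at 0.597 (0.575 to 0.620). Just short of the limit was P2rx7 at 0.683 (0.556 to 0.845), and P2ry6 at 1.37 was the highest. Of all 6700 genes compared, 30.5% differed by 1.5-fold in either direction, 17.2% lower and 13.2% higher. A measured difference of this size from library 1 was thus common among them. The minimum of 0.04 UMIs admits genes below the level of any member, whose ratios carry more counting error in the 408 cells of library 1. The part of counting error in this share is not given here. The median log2 ratio was -0.55 over the 7 genes and -0.08 over all genes.

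In library 3 against library 1, 3 of the 7 genes were again lower and 0 higher. Entpd1 had a ratio of 0.558 (0.490 to 0.639), P2rx7 of 0.594 (0.482 to 0.737) and P2ry12 of 0.648 (0.624 to 0.673), while P2ry13 at 0.759 did not reach the limit. The place of P2rx7 among these depended on the random draw of UMIs. With another seed its log2 ratio was -0.519, short of 1.5-fold, and without thinning it was -0.586, close to the limit. Of 6598 genes, 31.5% differed in either direction, 19.6% lower and 11.9% higher. The median log2 ratio was -0.40 over the 7 genes and -0.09 over all genes. This comparison and the one before share library 1, so their common direction is not independent.

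Libraries 2 and 3, which have similar depths and many more cells than library 1, differed less. None of the 7 genes reached 1.5-fold (0 higher, 0 lower), and their ratios of library 3 to library 2 ran from 0.843 for P2ry6 (0.813 to 0.875) to 1.28 for P2ry13 (1.23 to 1.34). Of 6344 genes, 9.52% differed in either direction, 5.55% lower and 3.97% higher. With all thinned cells, P2rx4 at 1.21 (1.10 to 1.34) and P2ry12 at 1.08 (1.06 to 1.11) were also higher in library 3 beyond counting error. P2rx7 at 0.869 was lower beyond it in this draw, but its log2 ratio was -0.016 with another seed. Entpd1 at 0.986 (0.912 to 1.07) and Adora3 at 1.01 (0.928 to 1.10) were within it.

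Raw depth moved with the comparisons that involve library 1. A limited range of raw totals was therefore also used, within which depth was not made equal between libraries. When only cells of 2000 to 4000 UMIs were used in every library, a choice made after seeing the data that left 399, 351 and 372 cells, the ratio of library 2 to library 1 was 0.676 for P2ry12 and 0.689 for P2ry13, both short of 1.5-fold, and 0.554 for Entpd1, which alone remained past it. For P2rx7 and P2rx4 that ratio was 0.733 (0.534 to 1.001) and 0.775 (0.572 to 1.04), with intervals that included 1. The ratio of library 3 to library 1 was then 0.705 for P2ry12, short of the limit, and 0.621 for P2rx7 and 0.629 for Entpd1. Of all genes compared in these cells, 32.4% differed by 1.5-fold in library 2 against library 1 (19.1% lower, 13.3% higher) and 31.2% in library 3 against library 1 (18.4% lower, 12.8% higher). Between libraries 3 and 2 it was 21.6% (10.1% lower, 11.5% higher), against 9.52% with all thinned cells. The part of the smaller number of cells in this rise was not tested. In library 3 against library 2, P2ry12 then had 1.04 (0.980 to 1.11) and P2ry6 0.938 (0.840 to 1.05). P2rx4 had 1.25 (0.921 to 1.70). These intervals included 1 and are wider with fewer cells, while P2ry13 had 1.26 (1.12 to 1.43). Against library 1 the intervals of P2ry12 (0.639 to 0.716 and 0.667 to 0.745) still lay below 1. With mitochondrial, ribosomal protein and early genes left out of the totals before thinning, Entpd1 had log2 ratios of -0.54 in library 2 and -0.48 in library 3 against library 1 and P2rx7 of -0.50 in library 3, no longer 1.5-fold. Thinned to 1000 UMIs, P2rx7 came to -0.31 in library 3 and to -0.23 in library 2 against library 1.

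**Figure D3:**
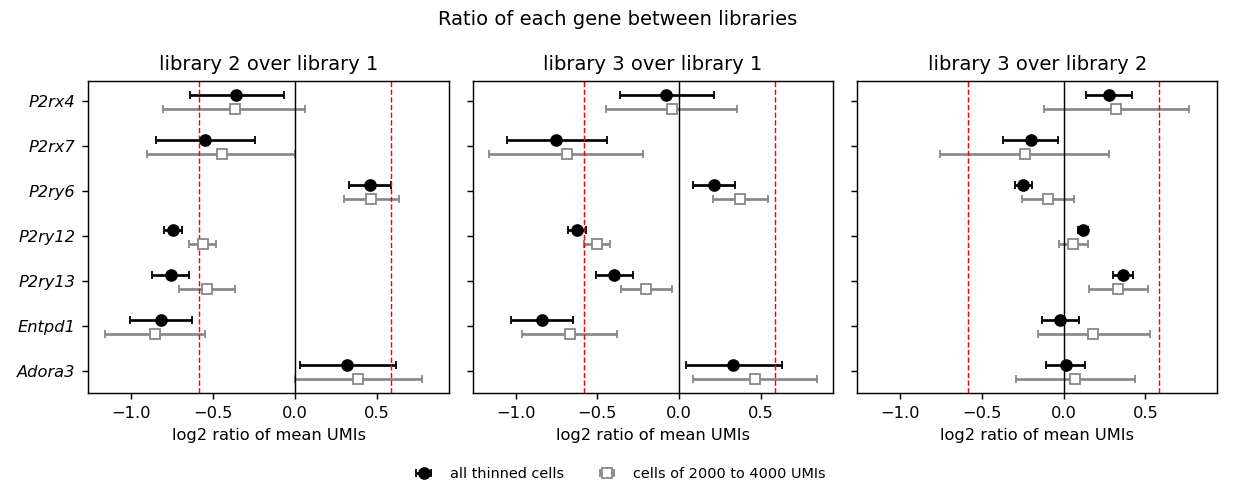
Log2 ratio of mean UMIs per thinned cell between libraries (horizontal axis) for each gene (vertical axis), with exact 95% intervals; filled circles use all thinned cells, open squares only cells of 2000 to 4000 UMIs, and dashed lines mark 1.5-fold. P2ry12 and P2ry13 pass the line in library 2 against library 1 with all cells and stop short of it in cells of 2000 to 4000 UMIs (ratios 0.676 and 0.689). No gene passes it between libraries 3 and 2.

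The other genes of purinergic signalling were taken from a list of 40, of which 12 passed the minimum level in each comparison. None of the 14 further receptors did (0 of 14). P2rx1 was the highest of these at 0.0221, 0.0132 and 0.0104 UMIs per cell, P2rx2, P2ry4, Gpr17, Adora2a and Adora2b had 0 UMIs in every library also without thinning, and P2ry14, 54273 bp from P2ry13 in the same cluster, was found in 1, 14 and 21 cells. Of the 14 enzymes 2 passed, Entpd6 and Pnp, the latter a phosphorylase of purine nucleosides. Nt5e, which encodes CD73 and makes adenosine from AMP, had 0 UMIs in libraries 1 and 3 and 1 in library 2. By the limit of 3 counts, a count of 0 in the 408 thinned cells of library 1 leaves room for 0.735% of cells with a UMI, and in the 3284 of library 3 for 0.0914%. The upper Clopper-Pearson bounds are somewhat higher (0.112% in library 3). Entpd1 was thus accompanied by almost no Nt5e in these cells at this depth.

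Transport genes and signalling partners were better represented, with 3 of 4 and 7 of 8 past the minimum. In library 2 against library 1, 2 of the 12 genes were at least 1.5-fold higher and 4 lower, beside the 13.2% and 17.2% of all genes given above. Those higher were Slc29a1, an equilibrative nucleoside transporter, at 1.504 (1.19 to 1.92) and Pycard, the inflammasome adaptor ASC, at 1.54 (1.40 to 1.69). Those lower were Slc17a9, the vesicular nucleotide transporter, at 0.357, the G protein genes Gnai3 at 0.540 and Gnaq at 0.567, and Casp1, which cleaves the interleukin-1β precursor, at 0.563. In library 3 against library 1, 2 were higher, Slc29a1 at 1.54 and the inflammasome sensor Nlrp3 at 1.64, and 3 were lower, Gnai3 at 0.608, Gnaq at 0.635 and Casp1 at 0.599, beside 11.9% and 19.6% of all genes. Between libraries 3 and 2, 2 were higher, Slc17a9 at 1.91 (1.43 to 2.57) and Nlrp3 at 1.60 (1.36 to 1.89), and 0 were lower, beside 3.97% and 5.55%. Slc17a9 had 0.0588, 0.0210 and 0.0402 UMIs per cell in libraries 1, 2 and 3. Against library 2 it passed the minimum of 0.04 only through the library where it was higher, in library 3 just barely. Its calls therefore follow in part from that minimum. Kcnk13, which encodes the potassium channel THIK-1, had 0.218, 0.206 and 0.210 UMIs per cell. It did not differ between libraries beyond counting error, with a ratio of 0.944 (0.757 to 1.19) between libraries 2 and 1. The median log2 ratio of the 12 genes was -0.02, 0.11 and 0.15 in these comparisons, against -0.08, -0.09 and -0.02 over all genes. With cells of 2000 to 4000 UMIs, 0 of the list were higher in library 2 than in library 1, beside 13.3% of all genes. Med12l, which covers P2ry12 and P2ry13 on the other strand, had 0.0833, 0.0695 and 0.125, a ratio of 1.79 between libraries 3 and 2. Whether the counting used strand is not given in the sources used here.

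Between cells of 1 library, the scatter of counts was compared with that of random sampling. The variance divided by the mean of the thinned counts, which is 1 for pure counting noise, was between 0.971 and 1.11 for P2rx4, P2rx7, P2ry6, Entpd1 and Adora3 over the libraries. It was 1.84, 1.39 and 1.41 for P2ry12 and 1.26, 1.07 and 1.08 for P2ry13. After the counting part was taken off, the remaining coefficient of variation between cells was 32.4%, 28.5% and 28.2% for P2ry12 and 37.8%, 25.7% and 24.0% for P2ry13. For Adora3 the value was 54.1%, 31.9% and 32.3%, and P2rx4 had 63.6% in library 1 and 39.1% in library 3. These rest on variances of 1.08, 1.03 and 1.03 times the mean for Adora3 and 1.11 and 1.04 for P2rx4, close to pure counting. No interval was computed for them, so they do not show that these genes varied more than P2ry12. In library 2 the variance of P2rx4, P2rx7 and P2ry6 was below that of counting, which leaves no such value. The ratio of variance to mean grows with the level of a gene, so its low values in the less abundant genes do not show that they varied less.

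Members were found together about as often as separate draws would give. A gene found in nearly all cells, such as P2ry12, must lie near this value, so the match does not show that members are unrelated. In library 1, P2ry12 and P2ry13 were found together in 321 cells where independence gives 319.8, although their counts were correlated, as given below. A thinned cell held 3.67, 3.43 and 3.49 of the 7 genes on average. In library 2, 34.3% of cells held 3 and 32.0% held 4, against 36.0% and 31.2% if each gene were found independently of the rest. The commonest combination was P2ry6 with P2ry12 and P2ry13 and no other member, in 14.2%, 17.0% and 19.7% of cells. All 7 genes were found in 1, 6 and 9 cells.

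Over cells of a library, Pearson's r of log(1 + UMIs) was computed for the 21 pairs, all of whose points share a library, a depth of 2000 UMIs and low counts. It ran from -0.089 to 0.227 in library 1, from -0.023 to 0.076 in library 2 and from -0.031 to 0.068 in library 3, with medians of -0.007, 0.007 and -0.003. The highest pair was P2ry12 with P2ry13 in each library, at 0.227 (408 cells), 0.076 (3569 cells) and 0.068 (3284 cells). In library 1 P2ry6 with P2ry13 followed at 0.139, while the same pair had -0.023 and -0.022 in libraries 2 and 3. The neighbouring P2rx4 and P2rx7 had -0.021, 0.007 and 0.042. They were found together in 22, 124 and 135 cells where independence gives 22.1, 119.3 and 113.0. Correlations of this size in sparse counts are descriptions and not findings.

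The relation of P2ry12 and P2ry13 can also be given as levels. In the cells of library 1 with at least 9 UMIs of P2ry12, P2ry13 had 2.23 UMIs per cell, against 1.39 in those with at most 6. In library 2 the levels were 1.19 (at least 6 UMIs of P2ry12) and 0.996 (at most 3), and in library 3 they were 1.48 (at least 6) and 1.32 (at most 4). P2ry13 was therefore higher in the cells with more P2ry12 in each library, by 1.60-fold (1.35 to 1.91), 1.20-fold (1.11 to 1.29) and 1.12-fold (1.06 to 1.20). P2ry13 was not alone in this. P2rx4 in library 2 had a ratio of 1.27 (1.07 to 1.51) and Entpd1 in library 3 of 1.15 (1.01 to 1.29), while the other ratios of these and the remaining members had intervals that included 1. Averaged over 3 equal classes of the raw UMI totals of the cells, r of P2ry12 and P2ry13 was 0.217, 0.061 and 0.059.

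**Figure D4:**
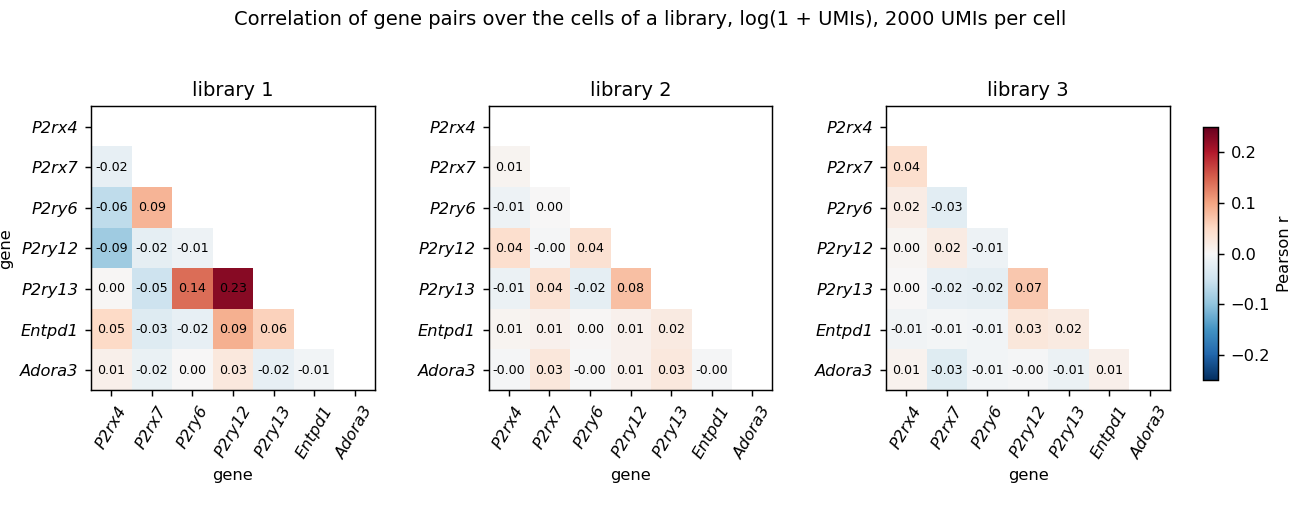
Pearson's r of log(1 + UMIs) over the cells of library 1, 2 and 3 for each pair of genes, at 2000 UMIs per cell; colour and printed value give r, rows and columns are genes. The pair P2ry12 and P2ry13 is the darkest in each panel (0.227, 0.076 and 0.068), and nearly all other cells of the panels are close to 0.

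Without thinning the picture was different. Beyond an r of 0.1 lay 5, 16 and 11 of the 21 pairs in libraries 1, 2 and 3, against 2, 0 and 0 at equal depth, and P2ry12 with P2ry13 reached 0.360, 0.356 and 0.294. Unthinned counts carry the depth of the cell as well. At 4000 UMIs the pair had 0.119 in library 2 and 0.093 in library 3, where 3218 and 2912 cells could be used.

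Genes whose counts ran most like those of a member were sought among 2923 genes with at least 0.1 UMIs per cell in libraries 2 and 3, by the mean r over these libraries. For P2ry12 they were Cst3 (cystatin C) at 0.199, the nuclear RNA Malat1 at 0.154 and Gpr34, another microglial G protein-coupled receptor, at 0.139, where the median gene had -0.001. In library 1, which was not used for the choice, these had 0.096, 0.070 and 0.194. For P2ry13 the highest was P2ry12 at 0.072, before Ctsd at 0.064 and Malat1 at 0.058. In library 1 these had 0.227, -0.027 and 0.020 with P2ry13. For the other 5 members no gene exceeded 0.058.

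The members were next compared between cell states within a library, where cells are not replicates of a condition and the intervals again hold counting error alone. The first division was by the raw UMI total of the cell, upper against lower tertile, both then thinned to 2000. In library 2 the mean raw totals of these tertiles were 9889 and 4287 UMIs. Here and in the divisions below, a thinned level is a share of the UMIs of a cell. A lower level is therefore not fewer molecules per cell. P2ry12 had 4.01 UMIs per cell in the upper and 5.32 in the lower tertile of library 2, a ratio of 0.755 (0.727 to 0.784), and its ratio was 0.806 (0.776 to 0.836) in library 3 and 0.896 (0.823 to 0.975) in library 1. P2ry13 (0.902, 0.825 and 0.857) and Entpd1 (0.694, 0.852 and 0.802 in libraries 1, 2 and 3) were likewise lower in the upper tertile, with intervals below 1 except for P2ry13 in library 1. In library 2 P2rx4 at 0.821 (0.688 to 0.979) and P2rx7 at 0.802 (0.660 to 0.972) were lower as well, and in library 3 P2ry6 at 0.895 (0.837 to 0.958). Adora3 did not differ beyond counting error, at 1.03, 1.02 and 0.927. The same division was not made over all genes, so these values do not set the members apart from other genes. The values of cells matched for raw depth are given with the comparisons between libraries.

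The second division was by 12 proliferation genes, with at least 2 of them found against none, and was possible only in library 2, with 1090 and 1173 cells, as libraries 1 and 3 had 1 and 11 such cells. Of the cells with proliferation genes 655 had exactly 2, so many lie at the cut. P2ry12 had 4.37 UMIs per cell with and 5.05 without them, a ratio of 0.865 (0.832 to 0.899). Adora3 had 0.289 and 0.352 (0.821, 0.707 to 0.953) and Entpd1 0.361 and 0.415 (0.871, 0.760 to 0.996). P2rx4, P2rx7, P2ry6 and P2ry13 had ratios of 0.935, 0.995, 1.03 and 0.940 with intervals that included 1. Cells with proliferation genes also had more UMIs, at a median of 6942 raw UMIs against 5725. Within the lower, middle and upper tertile of raw UMIs the ratio of P2ry12 was 0.985 (0.921 to 1.05), 0.936 (0.876 to 0.999) and 0.826 (0.768 to 0.888). That of Entpd1 was 1.02 (0.803 to 1.30), 1.001 (0.790 to 1.26) and 0.713 (0.558 to 0.914), below 1 beyond counting error in the upper tertile alone. P2rx4 had 1.08 and 1.19, with intervals that included 1, and 0.698 (0.503 to 0.972) in the upper tertile. In that tertile raw depth was not matched, at a mean of 10305 UMIs with proliferation genes and 9234 without. The lower and middle tertiles had 4268 against 4304 and 6086 against 6036. Adora3 had 0.666 (0.494 to 0.890), 0.903 (0.687 to 1.18) and 0.870 (0.672 to 1.13), with an interval below 1 in the lower tertile alone. Averaged over the tertiles the ratio was 0.921 for P2ry12 and 0.808 for Adora3. With at least 4 proliferation genes found, in 179 cells at a median of 9678 raw UMIs, P2ry12 had a ratio of 0.719 (0.662 to 0.780), P2ry13 of 0.727 (0.609 to 0.863) and Entpd1 of 0.700 (0.515 to 0.933), while P2ry6 had 1.02 (0.907 to 1.15). The part of raw depth in these ratios was not tested beyond the tertiles.

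The third division was by 17 immediate early genes, upper against lower tertile of their summed UMIs, with cuts relative to each library. The mean sums were 6.84 and 2.14 UMIs in library 1, 9.24 and 3.01 in library 2 and 82.1 and 34.3 in library 3. Cells tied at a cut were all included, so the groups are not exact tertiles. They held 194 and 149 cells in library 1, 1337 and 1219 in library 2 and 1103 and 1098 in library 3. In library 3, P2ry6 had 1.40 UMIs per cell in the upper and 1.68 in the lower tertile, a ratio of 0.833 (0.778 to 0.891), while in libraries 1 and 2 its ratios were 0.929 (0.769 to 1.12) and 1.01 (0.949 to 1.06). P2ry12 had 1.05 (1.01 to 1.09) in library 3 and 1.08 (1.04 to 1.12) in library 2, where P2ry13 had 1.11 (1.03 to 1.19) and P2rx4 0.831 (0.702 to 0.984). In library 1, P2rx7 had 1.58 (1.02 to 2.50) and Entpd1 0.702 (0.535 to 0.921). Adora3 had 0.855 (0.558 to 1.32), 1.07 (0.931 to 1.23) and 0.856 (0.736 to 0.996) in libraries 1, 2 and 3. P2rx7 had 0.969 and 1.17 in libraries 2 and 3, with intervals that included 1. A relation of these values to the AP-1 letters was not tested. Several of these ratios moved with the depth of thinning. Thinned to 1000 UMIs, P2ry6, P2ry12 and Adora3 in library 3 came to 0.938, 0.9993 and 1.02, P2rx4 in library 2 to 1.002 and P2rx7 in library 1 to 1.04. P2rx4 in library 1, at 0.752 (0.495 to 1.14), came to 1.25, and Adora3 in library 2 to 0.982.

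By 10 interferon-response genes, with at least 2 found against none, P2ry12 had 4.58 UMIs per cell in 122 cells of library 3 with them and 5.25 in 2518 without, a ratio of 0.873 (0.801 to 0.951). In library 2, with 211 and 2476 cells, the ratio was 0.977 (0.915 to 1.04). No other member had an interval that excluded 1 in either library. Library 1 had 31 cells with these genes and was not compared.

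**Figure D5:**
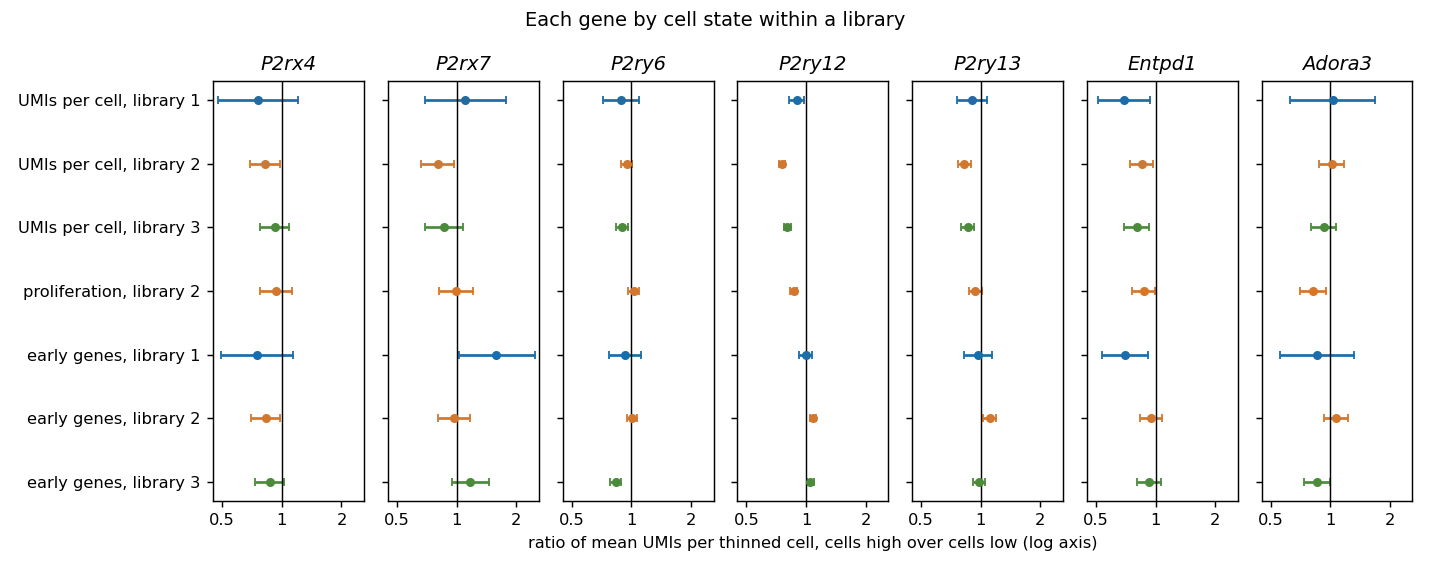
Ratio of mean UMIs per thinned cell (horizontal log axis) between cells high and low in a state, for each gene (panels) and each state and library (rows, coloured by library), with exact 95% intervals. P2ry12 is below 1 for raw UMIs per cell in the 3 libraries (0.896, 0.755 and 0.806) and for proliferation in library 2 (0.865), and P2ry6 is below 1 for early genes in library 3 (0.833).

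Cells that carried at least 2 markers of another cell type numbered 5, 21 and 24 in libraries 1, 2 and 3. Without them P2ry12 had 8.05, 4.79 and 5.20 UMIs per cell and Entpd1 0.680, 0.381 and 0.375, so that the levels of the members were nearly as given.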

How the data were processed

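Lumbar cord YFP (+) cells of 3 libraries were analysed. The authors deposited 1 matrix of raw UMI counts, with gene symbols and cell barcodes, not normalized, and barcode suffixes give the library. The submitters' processing notes name Cell Ranger 2.1.1 and mm10. Not given in the sources used here were the annotation release and any down-sampling at joining. The labels and the methods name different kit versions.

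Cells were thinned to 2000 UMIs without replacement (seed 1), which left out 261 of 7522 cells. Means, shares, ratios and r were computed with Python 3.11.15, numpy 2.4.6, scipy 1.17.1 and pandas 2.3.3. With 1 library per group no test was made. The ratio step and the correlations were tested on simulated libraries. Doublets were kept, as no usable calls could be had. PCR errors and free RNA are outside the intervals. Per cell and library, depth sets the precision.

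The members, the pathway list and the lists of states and markers were chosen with earlier results of these data known. Text names the members, overlapping genes, the pathway list and, for each member, the 3 genes with the highest mean r. The 250-base windows and motifs were chosen after values were seen. Alternatives were other depths, another seed, no thinning, other cell filters, scalings, folds and cuts. One further marker is not reported here. Not analysed here were a later time point and libraries of Tnfaip3 cKO mice.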

Additional observations from a re-analysis of the deposited data

How the results depend on the processing

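Of 490 recomputed values, 359 kept to the counting interval of the main value (counts: a factor of 1.5) and 128 moved beyond it without a turn of a called direction. This total is no measure of robustness. Shares fall by design at 2 or more UMIs and at 1000 UMIs, where 21 of 21 moved in each. Median-of-ratios scaling, with factors of 0.999, 0.998 and 0.982, could move little. Of 242 ratios and correlations, 18 crossed the point of no change, 3 whose main interval excluded it and 15 whose main interval included it. At a 2-fold limit 0 members were lower in library 2 or in library 3 than in library 1. With cells of 2000 to 4000 UMIs, added after seeing the data, 1 member was lower in library 2 than in library 1 (19.1% of all genes) and 0 genes of the pathway list were higher there (13.3%). With abundant other genes left out, 1 member was lower in library 3 than in library 1. Without thinning, the pathway list had 1, 0 and 1 genes higher in library 2 against 1, 3 against 1 and 3 against 2. With no minimum level it had 7 higher and 7 lower, 5 higher and 6 lower, and 4 higher and 2 lower. The share of all genes was computed only at 1.5-fold, for all thinned cells and for cells of 2000 to 4000 UMIs. Counts of members and of the pathway list under the other settings therefore have no share of all genes to be read against. Pairs beyond an r of 0.1 numbered 5, 16 and 11 without thinning and 1 in library 2 at 4000 UMIs. By early genes, thinning to 1000 UMIs turned P2rx4 in library 2 to 1.002 and, in library 3, P2ry12 to 0.9993 and Adora3 to 1.02, and among ratios within counting error it took P2rx4 in library 1 from 0.752 to 1.25, Adora3 in library 2 from 1.07 to 0.982 and, by proliferation, P2ry6 from 1.03 to 0.814. The causes were not tested. Median-of-ratios scaling and leaving out the deepest 5% of cells kept each count within 1.5 times. No paired analysis was possible because each group is 1 library. Library 1, with 408 cells of 2000 UMIs or more, limits the precision most.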
